A study of Mus musculus with 6 samples.

Results

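The chemokine family was examined here as 46 genes, of 30142 genes tested: the genes with a symbol of the form Ccl, Ccr, Cxcl or Cxcr and a number that had a probe set annotated with that symbol alone. The rule leaves out Cxcl12 and Cxcr4, and CXC ligands with other symbols, such as Pf4 and Ppbp, are not members. They were 32 ligands and 14 receptors. A rule on symbols, not on values, defined them, and it was set with earlier results of these data known. Ccl21a, Ccl21b, Ccl21c, Ccl27b and Cxcr7 lay only on probe sets annotated with several symbols and were not analysed here. The tumours grew from ID8-VEGF cells, a line of mouse ovarian surface epithelial origin that secretes vascular endothelial growth factor, implanted beneath the membrane around the ovary. All 6 arrays carried tumours of this line from late disease, with 1 primary and 1 metastatic tumour from each of the mice C1M3, C1M5 and C2M3, so that 3 primary tumours were set against 3 metastatic ones. The strain, age and treatment of the mice and the organ that held each metastasis are not given in the labels. The line is a single cell line engineered to make a growth factor, and each array reads a whole piece of tumour, so fewer cells of a type and less RNA per cell cannot be told apart.

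Chemokines are small secreted proteins that guide leukocytes along concentration gradients, and their receptors are G protein-coupled receptors on the moving cells. The names follow the spacing of the first conserved cysteines, which are adjacent in CC chemokines and separated by a residue in CXC chemokines. In tumours, CC ligands such as Ccl2 draw monocytes that become macrophages, CXC ligands of the Cxcl1 kind draw neutrophils, Cxcl9 and its relatives draw activated T cells after interferon-gamma, and Cxcl13, Ccl19 and their receptors arrange lymphoid tissue. Many of the genes are neighbours in the genome. On mouse chromosome 11 the genes Ccl2, Ccl7, Ccl11, Ccl12, Ccl8 and Ccl1 follow each other with 0 other protein-coding genes between them in RefSeq, and Ccl5, Ccl9, Ccl6, Ccl3 and Ccl4 form a further run of this kind. On chromosome 5, Cxcl3, Cxcl15, Cxcl1 and Cxcl2 do the same.

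The 120 bases before the start of 6 of these genes are printed to show what the start regions of the members hold: Cxcl1, Cxcl2 and Cxcl3 as neighbouring neutrophil attractants that share a motif, Ccl12 and Ccl8 as adjacent monocyte attractants, and Cxcl13 as a ligand above background on all 6 arrays. They are from RefSeq, build GRCm38.p6, plus strand, 5′ to 3′. Capitals mark the NF-kB-type motif (GGGA, any base, TTTCC) in the first 3 and the TATA motif TATAAA in the others.
Cxcl1, chr5:90891125-90891244: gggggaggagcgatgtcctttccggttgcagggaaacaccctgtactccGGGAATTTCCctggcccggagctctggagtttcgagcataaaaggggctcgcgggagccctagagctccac
Cxcl2, chr5:90903779-90903898: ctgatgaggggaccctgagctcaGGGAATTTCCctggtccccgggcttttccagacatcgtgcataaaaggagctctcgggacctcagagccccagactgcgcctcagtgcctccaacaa
Cxcl3, chr5:90785981-90786100: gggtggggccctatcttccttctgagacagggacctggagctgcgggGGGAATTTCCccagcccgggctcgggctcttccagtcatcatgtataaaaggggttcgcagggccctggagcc
Ccl12, chr11:82101725-82101844: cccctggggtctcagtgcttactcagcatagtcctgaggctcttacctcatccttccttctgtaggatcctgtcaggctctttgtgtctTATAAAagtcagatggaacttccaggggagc
Ccl8, chr11:82115065-82115184: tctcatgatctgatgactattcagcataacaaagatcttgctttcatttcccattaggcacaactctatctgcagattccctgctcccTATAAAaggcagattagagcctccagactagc
Cxcl13, chr5:95956819-95956938: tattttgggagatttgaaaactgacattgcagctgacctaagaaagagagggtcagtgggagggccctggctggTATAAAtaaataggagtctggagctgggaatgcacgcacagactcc

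The NF-kB-type motif began 71, 97 and 73 bases before the start of Cxcl1, Cxcl2 and Cxcl3. Searched on both strands in the 250 bases before each start, it was found for 4 of the 32 members in the promoter table, the other being Ccr3, and in 0.356% of all 32851 windows. TATAAA was found for 8 of the 32 members and in 12.4% of all windows. Among these members were Ccl8, Ccl12 and Cxcl13, where it began 32, 31 and 46 bases before the start. Cxcl3 also held TATAAA, beginning 30 bases before the start, and there it is printed in lower case. The interferon motif (GAAA, any 2 bases, GAAA) was found for Ccl19, Cxcl10 and Cxcl14 and in 2.98% of all windows, and the STAT-type motif (TTC, any 3 bases, GAA) for Ccl17, Ccr6 and Cxcl14 and in 7.02%. Matches of different motifs can share bases. A match of letters is a description of the window only.

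Levels are log2 intensities, on which a step of 1 is a 2-fold step in signal, and levels of different genes were not set against each other because each probe set has its own response. A gene was called above background on an array where it exceeded the 95th percentile of 1717 olfactory and vomeronasal receptor genes, which are normally silent outside the nose. That percentile was 5.85, 4.87 and 4.78 at the primary site and 5.03, 5.74 and 6.11 in the metastases, with the mice in the order C1M3, C1M5 and C2M3 here and throughout, so background signal itself differed between arrays. By this measure 20 of the 46 members, 16 ligands and 4 receptors, were above background on at least 3 arrays, and 8 were so on all 6: Ccl2, Ccl6, Ccl8, Ccl9, Ccl25, Cxcl13, Cxcl16 and Ccr7. Another 22 were above it on no array. In the primary tumour of C1M3 only 8 members exceeded the percentile, or 17.4% against 37.8% of all genes, while 23 did in the primary tumour of C1M5, or 50.0% against 50.5%.

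**Figure D1:**
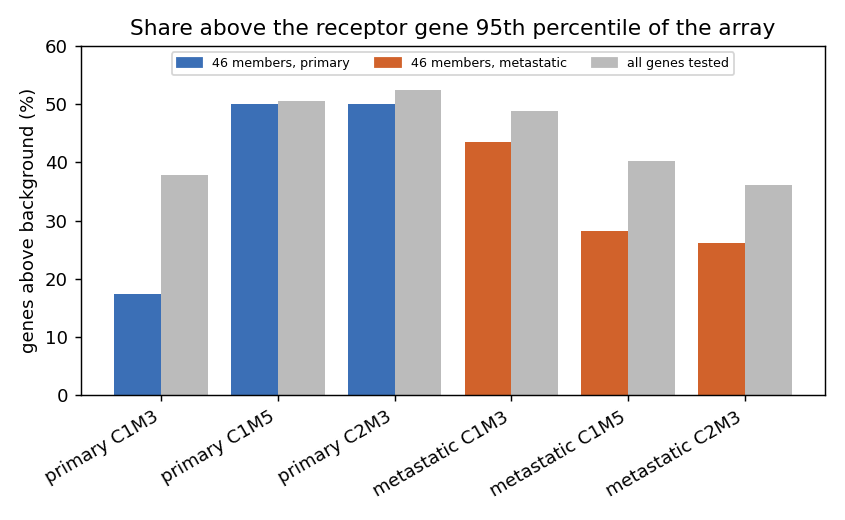
Percent of genes above the receptor gene 95th percentile of each array, for the 46 chemokine and receptor genes (blue bars, primary tumours; orange bars, metastatic tumours) and for all genes tested (grey bars). The lowest member share is the 17.4% of the primary tumour of C1M3 and the highest is 50.0%, in the primary tumours of C1M5 and C2M3.

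Markers of the source tissue and of host cells were read on the same arrays. All 9 listed mesothelial and ID8 tumour genes, such as the uroplakin gene Upk3b and the keratin gene Krt18, were above background on at least 3 arrays, as were all 12 macrophage genes and all 6 endothelial genes. Only 3 of 12 neutrophil genes, 5 of 9 measured T cell genes, 1 of 8 natural killer and cytotoxic cell genes and 0 of 5 measured B cell genes reached this. The neutrophil markers Ly6g and Mmp8, the T cell marker Cd8a, the natural killer cell receptor gene Ncr1 and the B cell gene Ms4a1 were above background on no array. The mean of the macrophage list was 6.35, 8.26 and 8.71 at the primary site and 7.96, 8.15 and 8.76 in the metastases.

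Metastatic and primary tumours were compared within mice to ask whether the chemokine system of the spread tumours differs from that at the implantation site. No member passed the test. With limma and the mouse as a block, 0 of 46 members and 0.0% of all genes had an adjusted p under 0.05, and every member's adjusted p was 0.841 or above. A p that misses the threshold does not show that the tumours are alike. At an unadjusted p under 0.05 there were 2 members, Ccl3 and Ccr8, against 4.93% of all genes. Both were higher in the metastases, where 2.96% of all genes stood, and 0 members were lower, against 1.97%. Without the block there was 1, Ccr10, against 4.21% of all genes. Cxcl9 was the only member with a mean difference of at least 2-fold, a size reached by 2.18% of all genes.

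Of the 46 members 36 had a higher mean in metastatic tumours, or 78.3%, against 55.1% of all genes. This count followed the scaling of the arrays: with each array centred on its median, 21 of 46 were higher, or 45.7%, against 30.4% of all genes, and the median of all genes moved by -0.11. The median difference of the members was 0.077 as deposited and -0.029 with centring, against 0.02 and -0.09 for all genes. The members were higher in the metastatic tumour of all 3 mice in 13 cases, against 11.1% of all genes, and lower in all 3 in 3 cases, against 8.64%. The groups did not overlap for Ccr7 and Ccr8 on the higher side, against 4.79% of all genes, and for Ccr10 on the lower side, against 2.84%. Of the 20 members above background on at least 3 arrays, 7 were higher in all 3 mice, against 12% of all genes above background, and 2 were lower, against 10.8%. Without overlap there was 1 on the higher side, Ccr7, against 4.7%, and 1 on the lower side, Ccr10, against 3.05%.

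**Figure D2:**
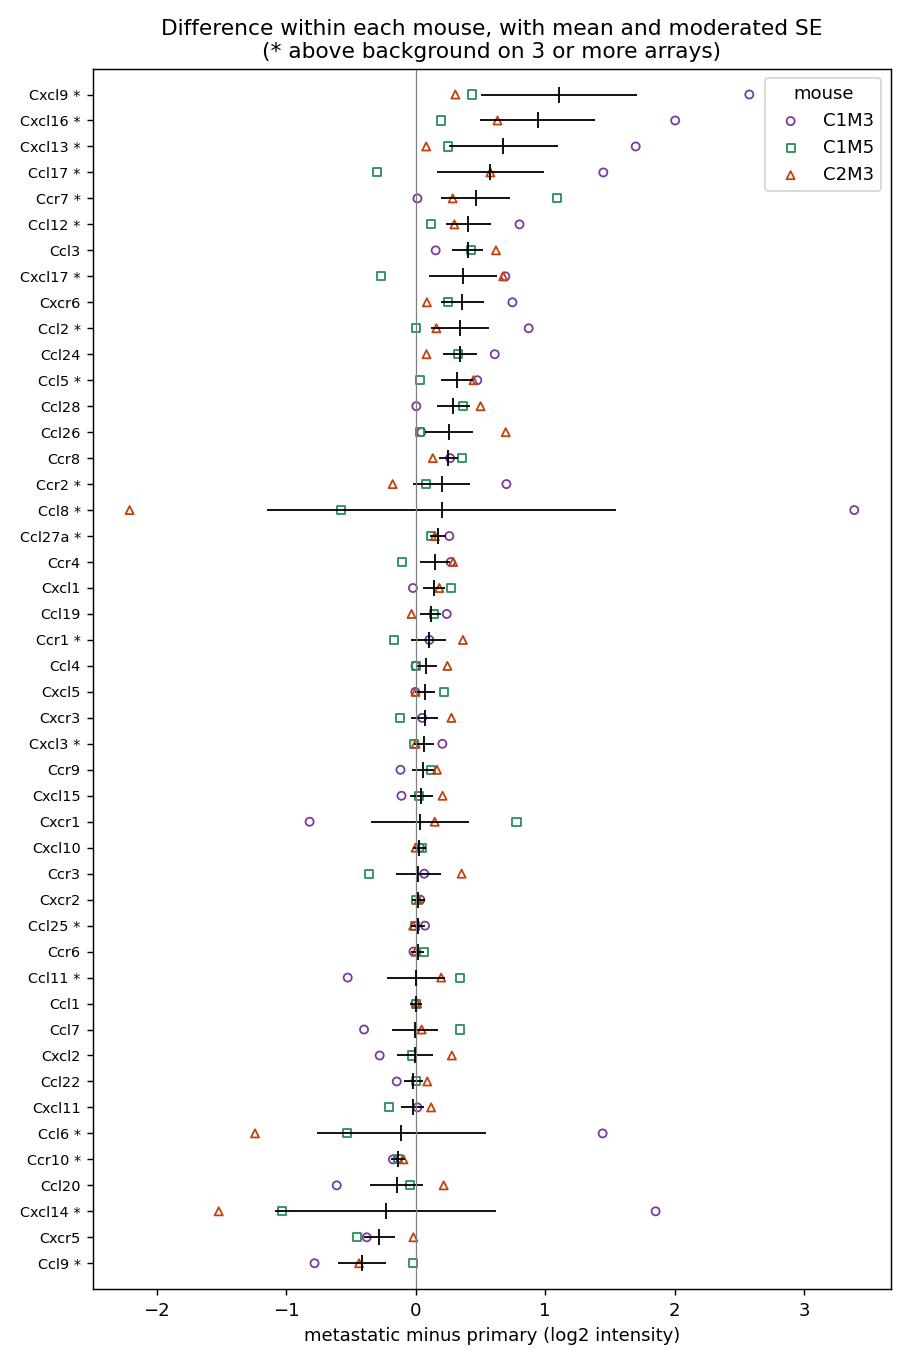
Metastatic minus primary log2 intensity for the 46 genes, with 1 open symbol per mouse, the mean as a vertical tick and the moderated SE as a line, asterisks marking genes above background on at least 3 arrays. Cxcl9, Cxcl16, Cxcl13 and Ccl17 have the highest means, each with its highest value in C1M3, and the symbols of Ccl8 run from -2.21 in C2M3 to 3.39 in C1M3.

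The 20 members above background had a median range over the 6 arrays of 1.16, against 0.669 for all genes above background on at least 3 arrays. Of the 20, 13 varied by at least 1 log2 unit, or 65.0%, against 32.0% of those genes. The primary tumour of C1M3 was the lowest of the 6 arrays for 14 of these 20 and for 19 of all 46 members, where it was lowest for 24.0% of all genes above background on at least 3 arrays and for 16.4% of all genes tested. The primary tumour of C1M3 was also the highest array for 25.0% of all genes above background on at least 3 arrays. For all genes tested that share was 28.9%. Among the members it was highest for 0 of the 20 and for 5 of all 46. The metastatic tumour of the same mouse was lowest for 3 of the 20. Ties between arrays were left out of these counts. The mean of the macrophage list was also lowest in the primary tumour of C1M3, and its part in these counts was not tested. For the 20, the mouse held a median of 51.0% of the sum of squares, against 43.3% for all genes above background, and the tissue 22.4%, against 16.3%. The degrees of freedom alone give 40.0% and 20%.

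**Figure D3:**
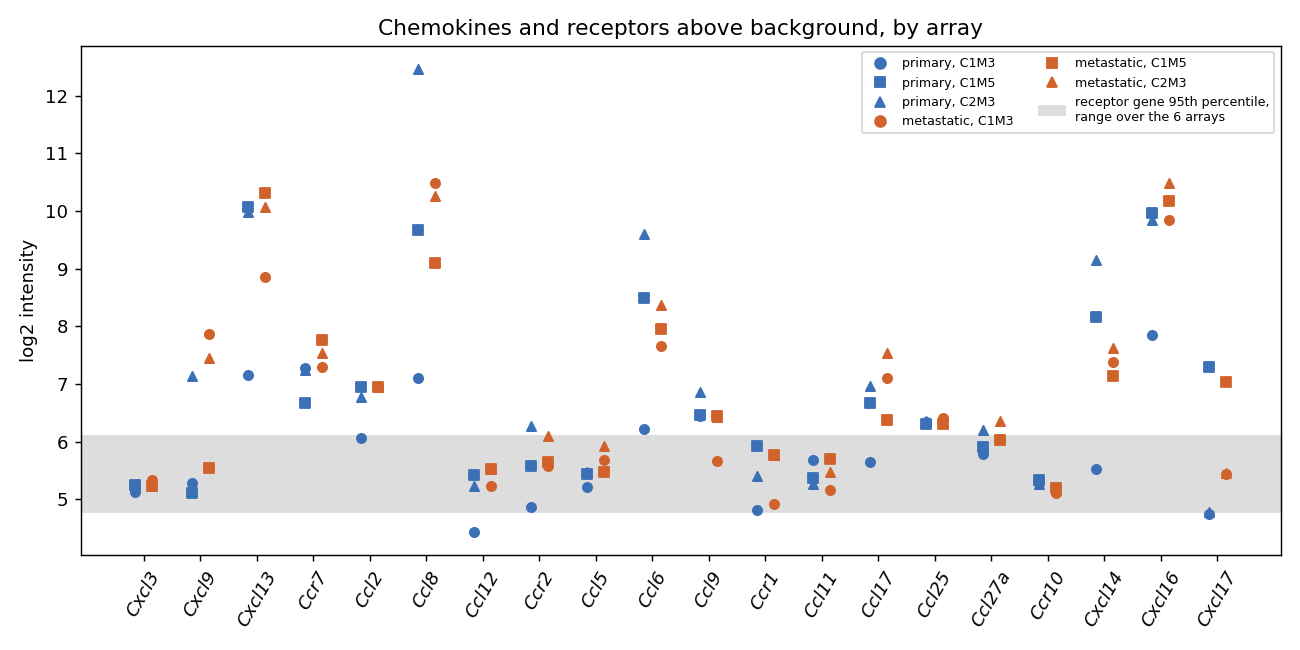
Log2 intensity of the 20 chemokine and receptor genes above background on at least 3 arrays, with blue symbols for primary and orange symbols for metastatic tumours and the symbol's shape for the mouse; the grey band spans the receptor gene 95th percentile over the arrays, 4.78 to 6.11. The primary tumour of C1M3 (blue circles) is the lowest for Ccl8, Ccl6, Cxcl13, Cxcl14 and Cxcl16, and both tumours of C1M5 (squares) are the highest for Cxcl17.

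Among ligands that draw monocytes, Ccl8, a chemokine made by macrophages and stromal cells (Entrez Gene 20307), varied most. Its log2 intensity was 7.10, 9.67 and 12.46 at the primary site and 10.49, 9.09 and 10.26 in the metastases. The primary tumours held both the lowest and the highest value, with the metastatic ones between them. The mean difference was 0.20 (SE 1.35, 95% interval -4.05 to 4.46), made up of 3.39 in C1M3, -0.58 in C1M5 and -2.21 in C2M3. In fits without the block, leaving out the C1M3 primary tumour gave -1.12 and leaving out the C2M3 primary tumour gave 1.56. The mean of the 4 measured monocyte genes, all above background on at least 3 arrays, was 5.57, 6.95 and 7.83 at the primary site and 6.46, 6.64 and 6.90 in the metastases. It was lowest and highest on the same arrays as Ccl8, and its part in the values of Ccl8 was not tested.

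Ccl2, the main monocyte attractant that acts through Ccr2, had 6.07, 6.94 and 6.78 in the primary tumours and 6.94 in each metastatic tumour. The deposited value was identical in 4 of the 6 arrays, and only the primary tumour of C1M3 lay well below the rest. The difference was 0.34 (SE 0.22), or 0.080 without mouse C1M3 and, in fits without the block, 0.080 without its primary tumour alone and 0.13 with array weights. Ccl12, a mouse monocyte attractant whose gene lies next to Ccl8, had 4.43, 5.42 and 5.23 at the primary site and 5.24, 5.54 and 5.53 in the metastases. It was higher in the metastasis of each mouse, by 0.80, 0.12 and 0.30. However, Ccl12 was above background on 3 arrays only, and among the metastases only in that of C1M3. The mean difference of 0.41 became 0.21 without mouse C1M3, and, in fits without the block, 0.11 without its primary tumour alone and 0.18 with array weights. Ccl7 lay between 5.02 and 5.47 on all arrays, above background on 2 of them. The receptor gene Ccr2 had 4.87, 5.58 and 6.28 at the primary site and 5.57, 5.65 and 6.10 in the metastases, a difference of 0.20 (SE 0.22) with overlapping groups. Like Ccl12, it was above background on 3 arrays, and among the metastases only in that of C1M3.

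Of the ligands that act through Ccr1 and related receptors, Ccl6, a chemokine of myeloid cells in mice (Entrez Gene 20305), had 6.22, 8.49 and 9.61 at the primary site and 7.67, 7.96 and 8.37 in the metastases. As for Ccl8, the primary tumours of C1M3 and C2M3 bounded all other arrays, and the differences of 1.44, -0.53 and -1.24 gave a mean of -0.11 (SE 0.65). Ccl9, its neighbour in the genome, had 6.44, 6.46 and 6.86 at the primary site and 5.66, 6.44 and 6.43 in the metastases, a difference of -0.41 (SE 0.19, adjusted p = 0.841). The difference was below 0 in all 3 mice, at -0.78, -0.02 and -0.44. The mean was -0.23 without mouse C1M3, and in fits without the block, leaving out the C1M3 metastasis gave -0.15 and leaving out the C2M3 primary tumour gave -0.27.

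Ccl5, a T cell and macrophage attractant, had 5.21, 5.44 and 5.47 at the primary site and 5.68, 5.47 and 5.92 in the metastases, a difference of 0.32 (SE 0.13). The groups touched, since the primary tumour of C2M3 and the metastatic one of C1M5 had the same value. Ccl5 was above background on 3 arrays, and among the metastases only in that of C1M3. Ccl3, which draws monocytes and other leukocytes, stayed near background with 5.32, 4.85 and 4.84 at the primary site and 5.48, 5.27 and 5.46 in the metastases. Its difference was 0.40 (SE 0.12, unadjusted p = 0.04, adjusted p = 0.841), and all metastatic values but that of C1M5 lay above every primary value. Ccl4, made by the same cells, was between 3.92 and 4.16 everywhere. The receptor gene Ccr1 followed the mouse: it had 4.82 and 4.92 in the tumours of C1M3, 5.93 and 5.76 in those of C1M5 and 5.41 and 5.77 in those of C2M3, with the primary tumour first. The mouse held 92.2% of its sum of squares and the tissue 1.38%. However, Ccr1 was above background on 3 arrays only, and in neither tumour of C1M3.

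**Figure D4:**
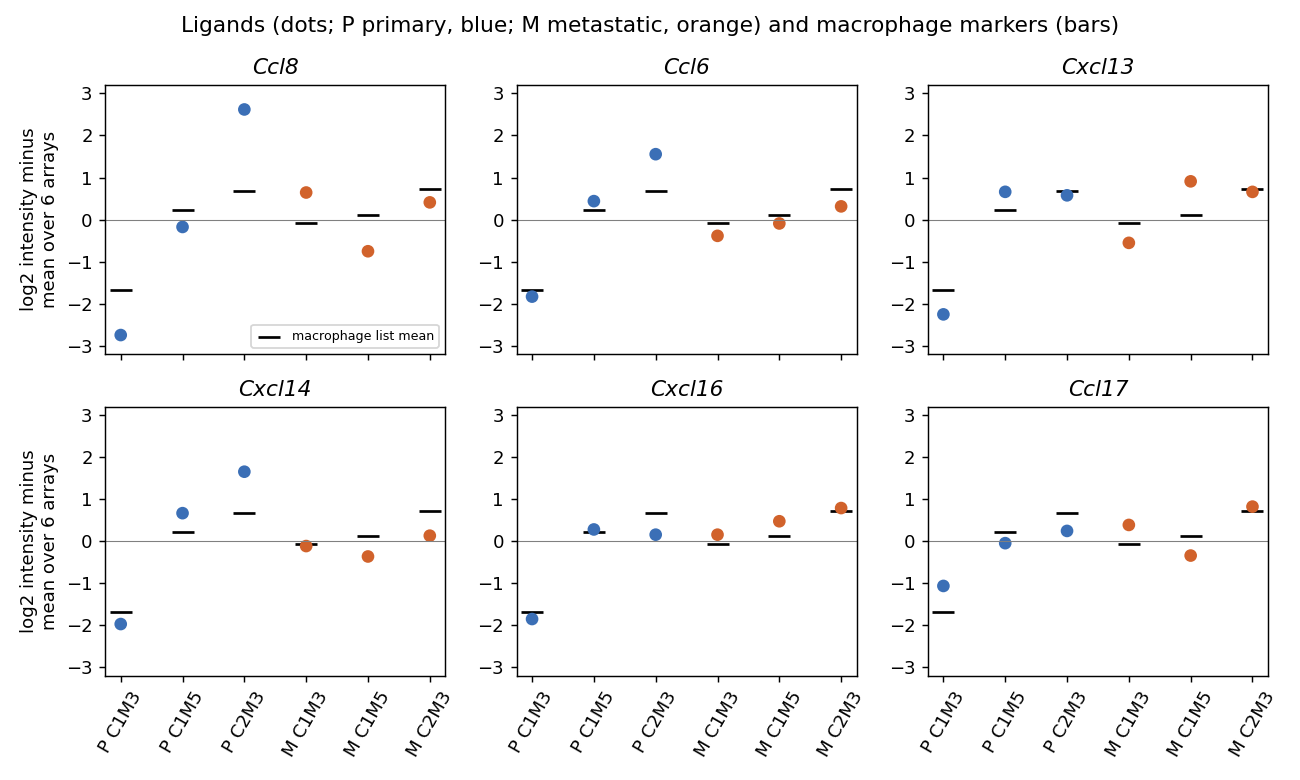
Log2 intensity minus the mean over the 6 arrays for 6 ligands (dots; blue, primary; orange, metastatic) and for the mean of 12 macrophage genes (black bars, the same in every panel). The primary tumour of C1M3 is lowest for each ligand and for the macrophage genes, and Ccl8, Ccl6 and Cxcl14 are highest in the primary tumour of C2M3.

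The interferon-gamma-induced ligand Cxcl9 (Entrez Gene 17329), which draws activated T cells through Cxcr3, had the widest mean difference of all members. Its log2 intensity was 5.29, 5.10 and 7.15 at the primary site and 7.86, 5.54 and 7.45 in the metastases. Both tumours of C1M5 were low, both tumours of C2M3 were high, and C1M3 was low at the primary site and high in the metastasis. Cxcl9 was above background on 4 arrays, but not in the primary tumour of C1M3 or the metastasis of C1M5. The median of the olfactory and vomeronasal receptor genes itself went from 3.99 to 4.16 in C1M5 and from 3.91 to 4.30 in C2M3. In C1M3 that median went from 4.35 to 4.01. The difference of Cxcl9 was 1.11 (SE 0.60, 95% interval -0.78 to 3.00, adjusted p = 0.841), higher in all 3 mice by 2.58, 0.44 and 0.31. It was 0.37 without mouse C1M3, 1.44 without C1M5 and 1.51 without C2M3. In fits without the block, it was 0.65 without the metastatic tumour of C1M3, 1.81 without that of C1M5 and 1.76 without the primary tumour of C2M3.

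Its closest relatives lay near background. Cxcl10 lay between 4.21 and 4.29 and Cxcl11 between 3.34 and 3.67, and both were above background on no array. Cxcr3, the receptor of all of these ligands, lay between 4.92 and 5.20, above background on 2 arrays. Among the other genes of interferon-gamma signalling, Gbp2, an interferon-induced GTPase, had 6.66, 7.34 and 7.47 at the primary site and 8.22, 7.52 and 8.37 in the metastases, and Ifng itself was above background on no array.

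Cxcl13 (Entrez Gene 55985), which draws B cells and follicular T cells through Cxcr5, had 7.16, 10.07 and 9.99 at the primary site and 8.86, 10.32 and 10.07 in the metastases. Only the tumours of C1M3 were low, the primary one most. The difference was 0.68 (SE 0.42, 95% interval -0.65 to 2.0), with 1.70 in C1M3, 0.25 in C1M5 and 0.08 in C2M3, and it was 0.17 without mouse C1M3. With the C1M3 primary tumour left out, in a fit without the block, it turned to -0.28. Its receptor gene Cxcr5 lay between 3.81 and 4.60, above background on no array, and 0 of 5 measured B cell genes were above background on at least 3 arrays. The mean of the 5 plasma cell genes was 5.05, 6.36 and 6.45 at the primary site and 5.13, 6.81 and 6.65 in the metastases. Of these genes 3 were above background on at least 3 arrays, and 2, Jchain and Mzb1, were lowest in both tumours of C1M3, while Sdc1 was not and Tnfrsf17 and Prdm1 were above background on no array. Their part in the values of Cxcl13 was not tested.

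Ccr7, the receptor that leads dendritic cells and naive T cells into lymphoid tissue (Entrez Gene 12775), had 7.28, 6.66 and 7.25 at the primary site and 7.30, 7.76 and 7.54 in the metastases. The groups did not overlap, but in C1M3 the tumours differed by only 0.01, against 1.09 in C1M5 and 0.29 in C2M3. The mean difference was 0.46 (SE 0.27, 95% interval -0.38 to 1.31, adjusted p = 0.841). It was 0.15 without mouse C1M5 and 0.69 without C1M3. In fits without the block, it was 0.26 without the primary tumour of C1M5 and 0.71 with array weights. Its ligand gene Ccl19 lay between 4.59 and 5.23, above background on 2 arrays, and is uncertain because the mouse genome holds near-identical copies of it. The dendritic cell list had means from 5.03 to 5.52 at the primary site and from 5.18 to 5.54 in the metastases. Of its 8 genes 4 were above background on at least 3 arrays, Itgax on all 6, while Flt3 and Batf3 were so on no array.

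Cxcl16 (Entrez Gene 66102), a ligand that exists both bound to the membrane and shed, had 7.84, 9.97 and 9.85 at the primary site and 9.85, 10.17 and 10.48 in the metastases. The value of the metastatic tumour of C1M3 equalled that of the primary tumour of C2M3, and only the primary tumour of C1M3 stood apart. The difference was 0.94 (SE 0.44, 95% interval -0.46 to 2.35, adjusted p = 0.841), higher in all 3 mice by 2.0, 0.19 and 0.63. It was 0.41 without mouse C1M3. In fits without the block, it was 0.26 with the C1M3 primary tumour left out and 0.42 with array weights. Cxcr6, its receptor on T cells and natural killer T cells, was higher in the metastatic tumour of all 3 mice but lay between 3.66 and 4.41, above background on no array.

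Ccl17, which draws T helper type 2 and regulatory T cells through Ccr4, had 5.65, 6.67 and 6.96 at the primary site and 7.10, 6.38 and 7.54 in the metastases. It was higher in the metastasis by 1.45 in C1M3 and 0.58 in C2M3 and lower by 0.29 in C1M5, a mean of 0.58 (SE 0.41). Without mouse C1M3 the mean was 0.14, and without C1M5 it was 1.01. Ccl22, the other ligand of this receptor, was between 4.05 and 4.20, and Ccl1 and the receptor genes Ccr4 and Ccr8 also lay above background on no array. Ccr8, a receptor of regulatory T cells in tumours, had 3.67, 3.32 and 3.67 at the primary site and 3.93, 3.68 and 3.80 in the metastases, so that its groups did not overlap. Its difference of 0.25 (SE 0.07, unadjusted p = 0.04, adjusted p = 0.841) came from values below the background percentile of every array.

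Genes for the recruitment of neutrophils read near background. Of the ligands, Cxcl1 lay between 4.19 and 4.79, Cxcl2 between 3.96 and 4.36, Cxcl5 between 4.10 and 4.32 and Cxcl15 between 4.11 and 4.35, each above background on no array. Cxcl3 lay between 5.13 and 5.34, above background only on the 3 arrays where that percentile was lowest. The receptor genes Cxcr1 and Cxcr2 lay between 3.56 and 4.61 and between 4.63 and 4.69, also above background on no array. Cxcl1, Cxcl2 and Cxcl3 are those whose promoters carry the motif shown in capitals. Of 14 NF-kB and inflammatory inducer genes 9 were above background on at least 3 arrays, while Il1a, Tnf, Il6, Il17a and Csf2 were so on no array. Il1b had 4.66, 5.17 and 5.32 at the primary site and 5.17, 5.25 and 6.07 in the metastases. It was above background on 3 arrays, and among the metastases only in that of C1M3. Of the neutrophil list, Csf3r, Lcn2 and Trem1 were above background on at least 3 arrays, genes that other cells also express.

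Cxcl14, a chemokine of epithelia, fibroblasts and fat (Entrez Gene 57266), had 5.53, 8.16 and 9.15 at the primary site and 7.38, 7.13 and 7.63 in the metastases. Its order followed that of Ccl6 in the primary tumours, while the metastatic values lay close together. The differences of 1.85, -1.03 and -1.52 averaged -0.23 (SE 0.85, 95% interval -2.93 to 2.47), and the mean was -1.27 without mouse C1M3. The fat cell list moved with it in the primary tumours, with means of 5.73, 9.10 and 11.37, but lay between 5.55 and 5.90 in the metastatic ones, and 9 of its 9 measured genes had a lower metastatic mean. The fibroblast list had 7.04, 9.07 and 10.07 at the primary site and 8.43, 8.26 and 9.88 in the metastases. The part of these cells in the values of Cxcl14, Ccl6 and Ccl8 was not tested.

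Cxcl17, a mucosal chemokine of epithelia (Entrez Gene 232983), marked a mouse. It had 7.30 at the primary site and 7.03 in the metastasis of C1M5, against 4.75 and 5.44 in C1M3 and 4.78 and 5.45 in C2M3. Cxcl17 was above background on 3 arrays only, those of both tumours of C1M5 and of the metastasis of C1M3. The mouse held 91.8% of its sum of squares and the tissue 3.27%, and the difference was 0.37 (SE 0.26), or 0.68 without mouse C1M5 and 0.20 without C1M3. The mean of the 9 mesothelial and ID8 tumour genes was 10.75, 12.45 and 11.22 at the primary site and 10.63, 12.61 and 11.20 in the metastases. Of these genes 6 had their highest values in both tumours of C1M5, and Wt1, Upk3b and Lrrn4 did not. The part of tumour cell content in Cxcl17 was not tested.

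Among the remaining members, Ccl27a, a ligand of skin epithelia, had 5.78, 5.92 and 6.21 at the primary site and 6.04, 6.03 and 6.36 in the metastases, higher in all 3 mice by 0.26, 0.12 and 0.15, with a difference of 0.18 (SE 0.06, adjusted p = 0.841). It was 0.069 with centring, and in fits without the block, leaving out the C2M3 metastasis gave 0.066, leaving out the C1M3 primary tumour 0.081 and leaving out the C2M3 primary tumour 0.30. Ccr10, its receptor, had 5.29, 5.33 and 5.26 at the primary site and 5.11, 5.20 and 5.17 in the metastases. These groups did not overlap, and the difference was -0.13 (SE 0.05), or -0.24 with centring. However, the values of Ccr10 spanned only 0.22 and were above background only on the 3 arrays where the background percentile was lowest. Ccl25, which draws T cells to the gut and thymus through Ccr9, lay between 6.31 and 6.42, and Ccl11, an eosinophil attractant, between 5.16 and 5.71. Ccl20, Ccl24, Ccl26, Ccl28, Ccr3, Ccr6 and Ccr9 were above background on no array, and ranged from 3.44 in Ccr6 to 5.15 in Ccl28. Of 4 eosinophil genes Prg2 was above background on 5 arrays, with 5.19 to 7.20, and Epx, Siglecf and Il5ra were so on no array.

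Other genes of the chemokine pathway, 66 measured of 73 listed, gave no call: 43 had a higher and 23 a lower mean in metastatic tumours, 0 had an adjusted p under 0.05 and 6 an unadjusted p under 0.05, against 4.93% of all genes. The 43 are 65.2%, against 55.1% of all genes, and with centring 28 were higher and 38 lower, or 42.4% higher against 30.4% of all genes. Cx3cr1, a receptor of tissue macrophages and monocytes, and Cxcr4, the receptor of Cxcl12, were higher in the metastatic tumour of all 3 mice, by a mean of 1.65 (SE 0.46) and 1.24 (SE 0.23), each with an adjusted p of 0.841. Of the signalling genes, the G protein subunit gene Gnai2 differed by -0.28 (SE 0.08), Rgs2, which restrains G protein signals, by -0.59 (SE 0.20), Rgs1, a regulator of the same family, by 0.24 (SE 0.06) and Pik3cg, the leukocyte phosphoinositide kinase, by 0.33 (SE 0.09). Among receptors and decoys that bind chemokines without G protein signals, Ackr1, Ackr4 and Ccrl2 were above background on no array, and Cmklr1, the chemerin receptor gene listed with them, differed by -0.07 (SE 0.29). The platelet chemokine gene Ppbp had 8.29 in the primary tumour of C2M3 and 5.54 to 6.22 elsewhere. Of the type 2 cytokine genes, the receptor gene Il4ra had 10.24 in the primary tumour of C1M3 and 12.30 to 13.37 elsewhere, a difference of 0.97 (SE 0.54).

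The lists behind these counts divided as follows, with 0 calls in each, and their directions are to be read against the 55.1% of all genes that were higher as deposited and the 30.4% with centring. Of 12 measured interferon-gamma pathway genes 10 had a higher and 2 a lower metastatic mean, but 5 and 7 with centring. The receptor subunit gene Ifngr2 differed by 0.38 (SE 0.13), the kinase gene Jak2 by 0.33 (SE 0.14), Gbp2 by 0.88 (SE 0.33) and its relative Gbp3 by 0.36 (SE 0.21). Of 14 NF-kB and inflammatory inducer genes 7 were higher and 7 lower, or 5 and 9 with centring, with Rela, an NF-kB subunit, at -0.35 (SE 0.11) and Tnfaip3, an inhibitor of the pathway, at -0.16 (SE 0.15). Of 8 type 2 genes 6 were higher, or 4 with centring, among them Arg1, the arginase of alternatively activated macrophages, at 0.59 (SE 0.25). Of 7 lymphoid organiser genes 6 were higher, or 2 with centring, among them the B cell survival factor gene Tnfsf13b at 0.44 (SE 0.28). Of 13 receptor signalling genes 6 were higher and 7 lower, or 5 and 8 with centring. Of 4 atypical receptors and decoys 2 were higher, or 1 with centring, and of 8 chemokine genes outside the members 6 were higher on both scales.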

How the data were processed

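RNA of 6 tumours was measured on whole-transcriptome arrays, 1 per tumour. The values deposited by the authors are log2 intensities per probe set, processed with RMA and Transcriptome Analysis Console, per the submitters' processing notes. The array's genome build is not given in the sources used here. Of 65956 probe sets outside the controls, 30604 had 1 distinct symbol in the platform annotation. Symbols were updated through Entrez Gene identifiers (827 probe sets), and each gene was read from its brightest probe set on average, giving 30142 genes. Each of the 46 members had 1 probe set.

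Differences were fitted with limma 3.58.1 (R 4.3.3), two-sided, with the mouse as a block, and adjusted by Benjamini-Hochberg over all genes, with a threshold of 0.05; the interval level was 95%. Tumours were paired through the donor label; the source name of 1 primary tumour names another mouse, and the donor label was followed. As a check of the pairing, the 2 tumours of each mouse were correlated across genes after subtracting group means, with r = -0.05, 0.35 and 0.07 in C1M3, C1M5 and C2M3, against 0.13, -0.02 and 0.09 for the closest pairing across mice. Only in C1M5 was the own pair the closest, so the pairing rests on the donor label. The fit was tested on simulated data. Genes above background on at least 3 arrays were given array by array, and up to 4 such genes per pathway list could be named; genes named from the marker lists were chosen after their values were seen. The members and lists were chosen with earlier results of these data known. The 3 mice are separate animals, and the number of arrays limits precision. Alternatives were no block, centring, a filter on dim genes, other probe set and symbol rules, array weights, an intensity trend and leaving out arrays or mice.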

Additional observations from a re-analysis of the deposited data

How the results depend on the processing

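The count of calls was 0 of all genes and 0 of the 46 members under each of the 16 alternatives. With no replicate block the differences were the same and no call changed: 0 genes passed, the smallest adjusted p was 0.407, and 1269 genes had an unadjusted p under 0.05, against 1485 with the pairing by mouse. That number was 4452 without mouse C1M3, 2747 without its primary tumour and 3180 with array weights. Centring each array moved the median difference to -0.029 for the members, -0.0067 for the ligands and -0.044 for the receptors, and keeping genes above the median level moved it to 0.19 for the 24 members left and 0.20 for the ligands. Over fits that left out a mouse (with the block) or an array (without it), it ran from 0.046 to 0.14 for the members, from 0.066 to 0.16 for the ligands and from 0.0089 to 0.16 for the receptors. Of 320 differences of the 20 members above background, 38 turned their sign, in 10 members; the cause was not tested. With centring these were Ccl11 at -0.10, Ccl25 at -0.089, Ccr1 at -0.0051 and Cxcl3 at -0.041. With array weights, in a fit without the block, they were Ccl8 at -0.43, Ccr1 at -0.14 and Cxcl17 at -0.15. Leaving out mice or arrays gave -0.16 to 0.27 for Ccl11, -0.014 to 0.042 for Ccl25, -1.05 to 0.64 for Ccl6, -1.39 to 1.56 for Ccl8, -0.18 to 0.38 for Ccr1, -0.15 to 0.55 for Ccr2, -0.28 to 1.18 for Cxcl13, -1.27 to 0.54 for Cxcl14, -0.16 to 1.21 for Cxcl17 and -0.0063 to 0.10 for Cxcl3. Signal over background limits the 26 members near it. It also limits members that were above background on 3 arrays only: Ccl5, Ccl11, Ccl12, Ccr1, Ccr2, Ccr10, Cxcl3 and Cxcl17.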

Other observations

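Several members had the same deposited value on several arrays, to the last digit: 10 of the 46 did on at least 3 arrays, or 21.7%, against 28.6% of all genes. Ccl1 had 1 value on 5 arrays, and Ccl2, Ccl4, Ccr6, Cxcl10 and Cxcr2 each had 1 value on 4. All but Ccl2 of these lay near background. For Ccl2 the repeated value was 6.94, in the primary tumour of C1M5 and in all metastatic tumours, so its metastatic values have no spread.

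The members above background on at least 3 arrays were ordered within the primary tumours as follows. Ccl5, Ccl6, Ccl8, Ccl9, Ccl17, Ccl27a, Ccr2 and Cxcl14 each had their lowest value in C1M3 and their highest in C2M3. For Ccl2, Ccl12, Ccr1, Cxcl3, Cxcl13, Cxcl16 and Cxcl17 the lowest value was in C1M3 and the highest in C1M5. Ccl11, Ccl25, Ccr7, Ccr10 and Cxcl9 had neither order. These orders were noticed in the data and not tested.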
